A study of Mus musculus with 7 samples.

Results

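Adam11 and 9 of its paralogs, Adam8, Adam9, Adam10, Adam12, Adam15, Adam17, Adam19, Adam23 and Adam28, were followed in mouse T-cells. These are 10 of the 25033 genes listed in each library, and 24 further ADAM genes are listed. Adam11 was chosen because its level was lower in every ORP4L KI library than in every WT library, so its difference between the groups is a description and carries no test. The paralogs were chosen by name, with earlier results of these data known. The question was whether any of them moved with Adam11.

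Each of the 7 libraries is the T-cell RNA of 1 mouse, 3 of them WT and 4 of them littermates with the ORP4L KI. All were C57BL/6J mice of both sexes and 15 months of age by the labels. In the KI mice the human ORP4L coding sequence, followed by IRES-EGFP, sits in the Rosa26 locus behind a CAG promoter and a loxP-flanked stop cassette. Cre from the Lck promoter, which is active in T-cells, removes the cassette. The KI mice were sampled when moribund, and the WT mice at the same age. The methods do not say whether the WT littermates carried Lck-Cre, nor whether each library came from blood or spleen. They describe a kit for naive CD4+ T-cells applied to the blood or spleen cells, a step that would remove other cell types, followed by culture with IL-2 and PHA, and do not tie these steps to the sequenced samples. Total counts ran from 12918187 to 15912921 in WT and from 16757959 to 19665679 in ORP4L KI, and 13462 genes passed the filter on low counts.

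The knock-in was checked first through Osbp2, which encodes ORP4L. Its counts were 0, 0 and 1 across the WT libraries and 188, 742, 155 and 443 across the KI libraries, and each KI library is above each WT library. Reads of the human insert and of the mouse gene cannot be told apart in these counts. The labels were also checked against marker genes, given as summed CPM, that is counts scaled to a common library size, here by the TMM method. The 13 T-cell genes listed summed to 2474 to 3329 CPM in WT and 1702 to 4772 CPM in KI, and none was at 0 in any library. Among them Cd4 read 257 to 360 CPM in WT and 93.4 to 415 CPM in KI. Cd8a read 124 to 179 CPM in WT and 79.6 to 226 CPM in KI. The B-cell gene Cd79a read 64.8 to 142 CPM in WT and 40.7 to 153 CPM in KI. The 14 granulocyte genes summed to 2399 to 5576 CPM in WT and to 146107, 10442, 31090 and 53580 CPM in KI replicates 1 to 4. KI replicate 1 stands apart, so values without it are given where a result rests on it.

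ADAM proteins are membrane-anchored proteins with a disintegrin domain and a metalloprotease domain. The catalytic members cut the outer parts of cytokines, receptors and adhesion proteins from the cell surface, a step called shedding, and need a zinc ion held by 3 histidines next to a catalytic glutamate. Adam11, Adam22 and Adam23 form a group that lacks this zinc site, is best known from neurons and binds LGI proteins, secreted ligands of the synapse. Adam10, Adam17 and Adam8 are the members best studied in leukocytes.

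The coding stretch of the zinc site is printed because it sets Adam11 and Adam23 apart from the other 8 members. Each line gives 33 bases on the coding strand, 5′ to 3′, from GENCODE M21 on GRCm38. Capitals mark the 4 codons of the first histidine, the glutamate, the second histidine and the third histidine, or what stands in their place.
Adam11: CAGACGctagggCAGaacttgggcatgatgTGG
Adam23: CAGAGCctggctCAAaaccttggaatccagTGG
Adam22: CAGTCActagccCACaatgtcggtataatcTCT
Adam8: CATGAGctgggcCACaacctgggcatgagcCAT
Adam10: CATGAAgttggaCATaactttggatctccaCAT
Adam17: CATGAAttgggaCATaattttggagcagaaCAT
Adam19: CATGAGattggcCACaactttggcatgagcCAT

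The Adam11 stretch lies at chr11:102773613-102773645 on the plus strand, in exon 13 of 26, and codes for 0 of the 3 histidines and no glutamate. The same holds for Adam23, at chr1:63547763-63547795 on the plus strand, in exon 13 of 26. Adam22, at chr5:8143064-8143096 on the minus strand in exon 13 of 31, keeps 1 of the 3 histidines. These 3 positions were found by aligning the translated sequence to a paralog that has the motif. The full motif was found in Adam8 (chr7:139987893-139987925, minus strand, exon 11 of 24), Adam17 (chr12:21336732-21336764, minus strand, exon 12 of 20) and Adam19 (chr11:46125050-46125082, plus strand, exon 11 of 23). In Adam10 it spans exons 9 and 10 of 16 (chr9:70754296-70761585, plus strand). All 8 members other than Adam11 and Adam23 carry the full motif.

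Adam11 read 57.5, 79.6 and 52.6 CPM in WT replicates 1 to 3 and 7.0, 14.8, 14.2 and 10.2 CPM in KI replicates 1 to 4. The groups do not overlap, and the highest KI library is far below the lowest WT library. The mean was 63.2 ± 14.3 CPM (SD, n = 3) in WT and 11.6 ± 3.66 CPM (SD, n = 4) in KI, 5.46-fold lower, with a fitted log2 fold change of −2.45 (SE 0.29). These values come from 749 to 1265 counts per WT library and 115 to 270 counts per KI library, so counting error is small beside the spread between mice. This difference chose the gene and is given with no test.

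Among the paralogs, Adam23, a receptor for LGI1, was lower in ORP4L KI. Adam23 read 43.2, 60.0 and 37.6 CPM in WT and 6.21, 12.3, 19.3 and 11.3 CPM in KI. The groups do not overlap, with KI replicate 3 the highest and KI replicate 1 the lowest of the KI libraries. The mean was 46.9 ± 11.7 CPM (SD, n = 3) against 12.3 ± 5.39 CPM (SD, n = 4), 3.82-fold lower, with a log2 fold change of −1.93 (SE 0.35). In edgeR's quasi-likelihood test the unadjusted p was 0.000299 and the adjusted p 0.0603, rank 63 of the 13462 genes. Adam23 therefore passed the unadjusted rule used here, which asks for p under 0.01 with a log2 fold change over 1 in size, and missed an adjusted p of 0.05. Without KI replicate 1 the log2 fold change was −1.72 (edgeR adjusted p = 0.0558), and without KI replicate 2 it was −1.95 and the adjusted p fell to 0.0333.

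Of the 8 paralogs tested, 1 was called lower by the rule of p under 0.01 and log2 fold change over 1, and 0 were called higher. Over all genes tested the same rule called 630, which is 4.68%, of which 310 (2.3%) were lower and 320 (2.38%) higher. At an adjusted p under 0.05, edgeR called 0 paralogs against 3 genes in all (0.0223%), of which 2 were lower (0.0149%) and 1 higher (0.00743%), and 1 paralog had an unadjusted p under 0.05, beside 1845 genes in all (13.7%). DESeq2's Wald test called 1 paralog, Adam23, at an adjusted p under 0.05, beside 784 genes in all (5.83%). The groups did not overlap for 1 paralog, again Adam23, which was lower. Over all genes the groups did not overlap in 13.8%, with 7.38% lower and 6.43% higher. The median log2 fold change of the 8 paralogs was 0.07, with 4 negative and 4 positive, beside a median of 0.01 over all genes. The members passed a filter on counts, and Adam28 did not pass it.

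**Figure D1:**
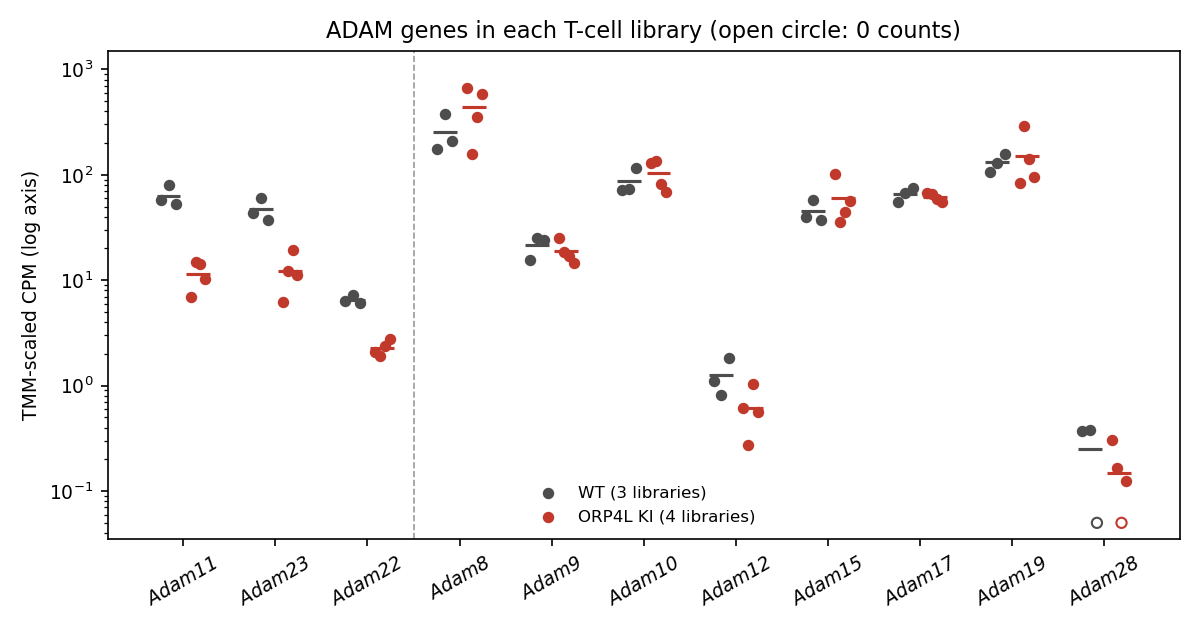
TMM-scaled CPM (log axis) of the 10 members and Adam22 in each of the 3 WT (grey) and 4 ORP4L KI (red) libraries. Points are libraries, bars are group means and open circles are libraries at 0. Left of the dashed line are the genes shown that have an incomplete zinc site, whose groups do not overlap. Adam11 lies at 52.6 to 79.6 CPM in WT and 7.0 to 14.8 CPM in KI. Right of the line are the genes shown that have the full site.

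The sheddases with the full zinc site that are most used in leukocytes did not pass either rule. Adam10, which cuts Notch receptors and CD44, read 72.2, 73.8 and 115 CPM in WT and 129, 135, 81.7 and 68.9 CPM in KI. The groups overlap, and the log2 fold change was 0.25 (SE 0.29, edgeR adjusted p = 0.806). Adam17, the enzyme that releases TNF, read 54.7, 66.7 and 74.2 CPM in WT and 67.0, 65.3, 59.3 and 54.9 CPM in KI. Its KI values all lie within the WT range. Its log2 fold change was −0.08 (SE 0.18, edgeR adjusted p = 0.908), and without WT replicate 3 the sign turned, to 0.02.

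Adam8, a sheddase of granulocytes and monocytes, had the highest positive fold of the paralogs but a wide spread. It read 177, 375 and 208 CPM in WT and 664, 159, 352 and 586 CPM in KI. KI replicates 1 and 4 are above every WT library, while KI replicate 2 is below every WT library. The mean was 253 ± 107 CPM (SD, n = 3) against 440 ± 230 CPM (SD, n = 4), with a log2 fold change of 0.80 (SE 0.47, edgeR adjusted p = 0.525). Without KI replicate 1 it was 0.53 (edgeR adjusted p = 0.721). The order of the 4 KI libraries by Adam8 is the same as by their summed granulocyte markers, of which 13 of 14 were called higher in KI. The WT orders differ, with Adam8 lowest in replicate 1 and the marker sum lowest in replicate 3. KI replicate 2, with the lowest Adam8 of all libraries, has a marker sum of 10442 CPM, above every WT library. The part of granulocytes in the Adam8 values was not tested.

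**Figure D2:**
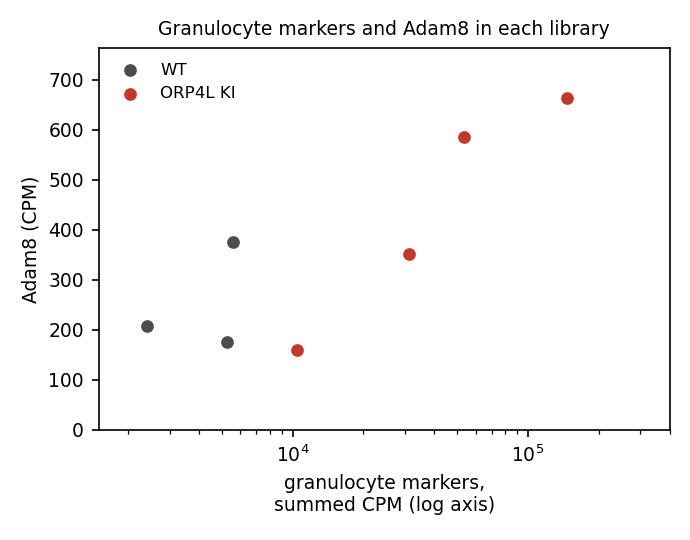
Adam8 (CPM) against the summed CPM of 14 granulocyte markers (log axis) in each WT (grey) and ORP4L KI (red) library. The KI libraries run from 159 CPM of Adam8 at a marker sum of 10442 CPM to 664 CPM at 146107 CPM, and the WT libraries lie at sums of 2399 to 5576 CPM with 177 to 375 CPM of Adam8.

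Adam19, a sheddase of neuregulins, read 106, 130 and 156 CPM in WT and 82.9, 292, 140 and 94.6 CPM in KI. The highest value is KI replicate 2, while KI replicates 1 and 4 are below every WT library. The log2 fold change was 0.22 (SE 0.41, edgeR adjusted p = 0.885), and it was −0.32 without KI replicate 2, so its sign rests on that library. Adam15, which binds integrins through its disintegrin domain, read 39.9, 57.6 and 37.3 CPM in WT and 102, 35.8, 44.6 and 56.0 CPM in KI. KI replicate 1 alone is above the WT range. Its log2 fold change of 0.41 (SE 0.35, edgeR adjusted p = 0.706) was 0.02 without that library.

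Adam9, a broadly expressed sheddase, read 15.4, 25.3 and 23.9 CPM in WT and 25.3, 18.6, 17.1 and 14.6 CPM in KI, and the groups overlap. Its log2 fold change was −0.19 (SE 0.26, edgeR adjusted p = 0.837). Adam12, known from muscle and placenta, was read 18, 13 and 26 times in WT and 10, 5, 18 and 9 times in KI. At these counts the log2 fold change was −1.01 (SE 0.51, edgeR adjusted p = 0.446), and KI replicate 3, at 1.03 CPM, is above WT replicate 2, at 0.818 CPM. Adam28, a member described in lymphocytes, was read 6, 6 and 0 times in WT and 5, 3, 0 and 2 times in KI, too few to test, and 3 counts corresponds to 0.164 to 0.211 CPM in these libraries. The 7 tested paralogs other than Adam23 ran from −1.01 to 0.80 in log2 fold change, and their lowest edgeR adjusted p was 0.446.

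**Figure D3:**
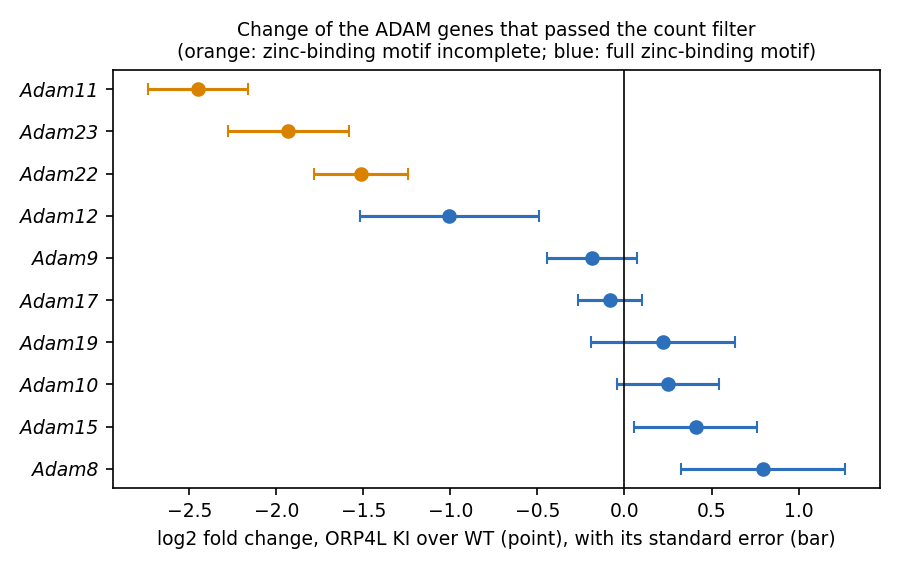
log2 fold change of ORP4L KI over WT (point) with its standard error (bar) for the 9 members that passed the count filter and Adam22. Of the genes shown, Adam11 (−2.45), Adam23 (−1.93) and Adam22 (−1.51), whose zinc site is incomplete (orange), lie lowest. Those with the full site (blue) run from −1.01 for Adam12 to 0.80 for Adam8. Not shown are Adam6b (−1.41), Adam4 (−0.08) and Adamdec1 (0.81), which also have an incomplete site, and Adam1a (0.07) and Adam30 (1.19), which have the full site.

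Levels of different genes were compared per length, as deposited RPKM (reads per kilobase of the longest transcript at a fixed library total). In WT the order was Adam8 (85.1 ± 31.1 RPKM), Adam19 (22.3 ± 4.72 RPKM), Adam10 (20.2 ± 6.44 RPKM), Adam15 (16.5 ± 3.13 RPKM), Adam17 (15.3 ± 2.54 RPKM) and Adam11 (14.4 ± 2.46 RPKM), each SD with n = 3. Then came Adam23 (7.88 ± 1.52 RPKM), Adam9 (5.70 ± 1.33 RPKM), Adam12 (0.175 ± 0.0793 RPKM) and Adam28 (0.0835 ± 0.0725 RPKM). By their ranges over the WT libraries, Adam8 is separate from the next gene and each neighbouring pair from Adam19 to Adam11 overlaps. Adam11, Adam23 and Adam9 are each separate from the gene below. Within each WT library, Adam19 is above Adam10. In KI, Adam8 (130 ± 57.7 RPKM, n = 4) again came first, followed by Adam19, Adam10, Adam15 and Adam17 at means of 24.7, 21.6, 19.3 and 13.1 RPKM. Adam11 (2.46 ± 1.00 RPKM) and Adam23 (1.92 ± 0.936 RPKM) were then below Adam9 (4.50 ± 0.872 RPKM). The ranges of Adam9 and Adam11 overlap in KI, as do those of Adam11 and Adam23. Within each KI library, Adam9 is above Adam11.

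Adam22 is no member but was in the list of other ADAM genes and is the third gene of the LGI-binding group. It read 6.34, 7.17 and 6.11 CPM in WT and 2.07, 1.92, 2.35 and 2.80 CPM in KI. The groups do not overlap, and the 4 KI libraries lie close together. The mean was 6.54 ± 0.558 CPM (SD, n = 3) against 2.29 ± 0.388 CPM (SD, n = 4), 2.86-fold lower, with a log2 fold change of −1.51 (SE 0.27, edgeR adjusted p = 0.0603). Without KI replicate 1 it was −1.47 (edgeR adjusted p = 0.0577). It passed the unadjusted rule and not the adjusted one.

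Summed over RPKM, Adam11, Adam22 and Adam23 made up 15.3%, 12.8% and 11.3% of these 11 ADAM genes in the WT libraries and 1.03%, 3.54%, 3.62% and 1.93% in the KI libraries. These shares hold the gene that was chosen for its difference, and they are a description. They also depend on Adam8, the gene of the 11 with the highest RPKM in each library. Adam8 read 61.3, 120 and 73.7 RPKM in WT and 178, 55.5, 112 and 173 RPKM in KI. The shares were lowest in KI replicates 1 and 4, where Adam8 was highest. The level of Adam23 per Adam11, as a ratio of RPKM, was 0.555, 0.558 and 0.528 in WT and 0.656, 0.613, 1.00 and 0.820 in KI. The ratio was near constant in WT and higher in each KI library. Its divisor is the gene chosen for being lower in KI, so a gene that fell less gives a higher ratio there. The ratio is therefore also a description. The longest exact run shared by any pair of these 11 transcripts was 21 bases, between Adam8 and Adam15, and it was 20 bases between Adam11 and Adam23.

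The zinc site was also read in the 5 remaining ADAM genes that passed the filter. Adam6b, which codes for 0 of the 3 histidines, was read 10, 11 and 30 times in WT and 5, 11, 10 and 3 times in KI, with a log2 fold change of −1.41 (SE 0.60, edgeR adjusted p = 0.339). Its groups do not overlap in CPM, and it passed neither rule. Adam4 lacks the glutamate codon and had a log2 fold change of −0.08 (edgeR adjusted p = 0.963). Adamdec1, a soluble relative known from macrophages and dendritic cells, has 2 of the 3 histidine codons and a log2 fold change of 0.81 (SE 0.42, edgeR adjusted p = 0.461). Adam1a and Adam30 have the full motif, with log2 fold changes of 0.07 and 1.19 and edgeR adjusted p of 0.977 and 0.386. Of the 5 genes found with an incomplete site besides Adam11, which was chosen for its difference, Adam22 and Adam23 passed the unadjusted rule, and Adam4, Adam6b and Adamdec1 did not.

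Of the 24 other ADAM genes listed, 6 passed the filter, 11 were at 0 in every library, and 1 of the 6, Adam22, was called lower and 0 higher. The median log2 fold change of the 6 was −0.01. Over all genes tested 2.3% were called lower and 2.38% higher, and the groups did not overlap in 13.8%. These shares stand beside the counts of each list below.

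The secreted relatives are the ADAMTS proteases, which act on extracellular matrix, and the ADAMTS-like proteins, which lack a protease domain. Of 24 genes listed, 10 were tested, with Adamtsl2 and Adamtsl4 the ADAMTS-like genes among them, 1 was called lower and 0 higher, with a median log2 fold change of −0.17. The one called is Adamts14, which trims the ends of procollagen. Adamts14 read 33.9, 36.5 and 41.9 CPM in WT and 6.94, 14.4, 10.9 and 9.21 CPM in KI. The groups do not overlap. The log2 fold change was −1.85 (SE 0.26, edgeR adjusted p = 0.0601), and −1.71 without KI replicate 1 (edgeR adjusted p = 0.0558). Adamts10, the ADAMTS gene with the most reads, had a log2 fold change of −0.30 (edgeR adjusted p = 0.642).

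Among 5 inhibitors of metalloproteases, 3 were tested, 1 was called higher and 0 lower, with a median log2 fold change of 0.53. Reck, a membrane-anchored inhibitor of matrix metalloproteases and ADAM10, read 7.27, 8.68 and 12.4 CPM in WT and 37.6, 20.6, 28.6 and 29.1 CPM in KI. The groups do not overlap, and each KI library is above the highest WT library. The mean was 9.44 ± 2.63 CPM (SD, n = 3) against 29.0 ± 6.91 CPM (SD, n = 4), a log2 fold change of 1.62 (SE 0.28, edgeR adjusted p = 0.0603), and of 1.46 without KI replicate 1 (edgeR adjusted p = 0.0565). Timp2, a secreted inhibitor, had a log2 fold change of 0.53 (SE 0.24, edgeR adjusted p = 0.365).

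Genes that mature or steer ADAM10 and ADAM17 were not called in either direction. Of 9 partners, the iRhom proteins, FRMD8 and the tetraspanins that escort ADAM10, 8 were tested, with a median log2 fold change of 0.06. Frmd8, which stabilises iRhoms, and Tspan14, an escort of ADAM10, had the most reads and log2 fold changes of −0.01 and 0.12 (edgeR adjusted p of 0.991 and 0.859), with signs that turn under other settings. Tspan5, another escort of ADAM10, was the 1 of the 8 whose groups do not overlap, beside 13.8% of all genes. It read 15.8 to 18.4 CPM in WT and 22.7 to 39.4 CPM in KI (log2 fold change 0.74, edgeR adjusted p = 0.197). Of the 4 proprotein convertases, which remove the inhibitory prodomain, 2 were tested. Furin had a log2 fold change of 0.25 and Pcsk7 of −0.07, with edgeR adjusted p of 0.690 and 0.922.

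Of 14 known substrates of ADAM17, 13 were tested, 3 were called lower and 0 higher, with a median log2 fold change of −0.21. Cx3cl1, a membrane-bound chemokine, was read 46, 98 and 33 times in WT and 2, 8, 17 and 15 times in KI, with a log2 fold change of −2.60 (SE 0.61, edgeR adjusted p = 0.0968), which was −2.06 without WT replicate 2 and then missed the rule. Csf1r, the receptor for the macrophage growth factor, read 228, 345 and 226 CPM in WT and 138, 98.3, 117 and 120 CPM in KI, and its log2 fold change of −1.17 (SE 0.22, edgeR adjusted p = 0.0655) became −0.94 without WT replicate 2 and then missed the rule. Mertk, a receptor for engulfing dead cells, was read 30, 45 and 30 times in WT and 10, 8, 18 and 20 times in KI (log2 fold change −1.44, SE 0.44, edgeR adjusted p = 0.168), and it missed the rule when any library but KI replicate 4 was left out. Csf1r and Mertk are also markers of monocytes and macrophages. Tnfrsf1b, a TNF receptor and among the substrates with the most reads, had a log2 fold change of −0.21 (edgeR adjusted p = 0.770).

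Of 13 known substrates of ADAM10, 12 were tested, 1 was called lower and 0 higher, with a median log2 fold change of 0.04. Havcr2, which encodes the inhibitory receptor TIM-3, read 48.3, 75.2 and 49.0 CPM in WT and 14.9, 32.4, 36.5 and 26.6 CPM in KI. Its log2 fold change of −1.06 (SE 0.31, edgeR adjusted p = 0.153) passed the unadjusted rule with all 7 libraries and missed it without any 1 of WT replicates 1, 2 and 3 or KI replicates 1 and 4. Havcr2 and Cxcl16, a membrane-bound chemokine, were the 2 of the 12 whose groups do not overlap, beside 13.8% of all genes. Cxcl16 read 27.3 to 58.1 CPM in WT and 7.37 to 24.98 CPM in KI (log2 fold change −1.32, edgeR adjusted p = 0.188). Cd44, an adhesion receptor, and App, the amyloid precursor, had the most reads and log2 fold changes of 0.15 and 0.44 (edgeR adjusted p of 0.880 and 0.618).

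The ligands of the Adam11 group were close to absent from the counts. Lgi1, Lgi2, Lgi3 and Lgi4 all fell under the filter, with at most 15 counts in a library, for Lgi4 in WT replicate 2. Of the 8 genes of LGI ligands and their channel partners 3 were tested, 0 were called, and the median log2 fold change was −0.26. Kcnab2, a potassium channel subunit, and Dlg4, a synaptic scaffold, had log2 fold changes of 0.06 and −0.28 (edgeR adjusted p of 0.925 and 0.773).

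**Figure D4:**
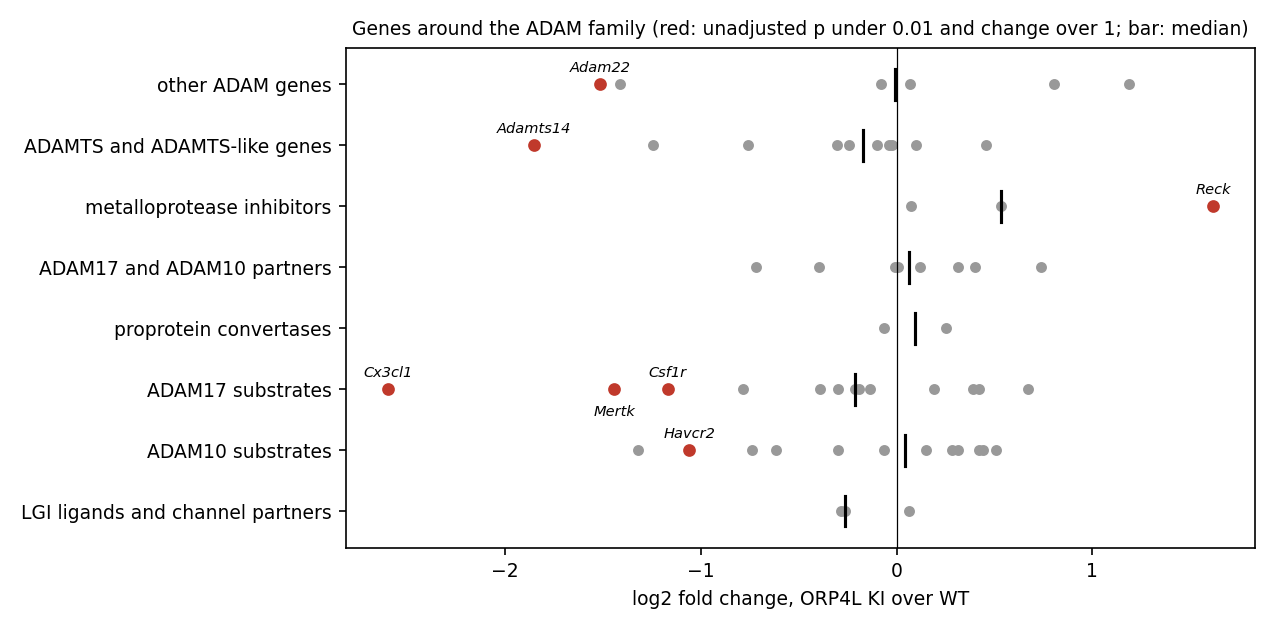
log2 fold change of ORP4L KI over WT for each tested gene of 8 lists around the ADAM family. Red and named are the genes past the unadjusted rule, grey are the others, and the black bar is the list's median, which runs from −0.26 for the LGI ligands and channel partners to 0.53 for the inhibitors.

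The genes whose log2 CPM followed Adam11 most closely over the 7 libraries, among 11741 genes, were Sulf2 (Pearson r 0.994), Elmo2 (0.990), Rgl1 (0.986), Abcg3 (0.985) and Slc4a8 (0.983). The groups do not overlap in any of the 5, and their log2 fold changes were −1.57, −0.72, −1.75, −1.14 and −1.02. Adamts14 came at rank 14 (r 0.979), Adam23 at rank 24 (r 0.976) and Adam22 at rank 106 (r 0.943). The 7 libraries fall into 2 groups that differ in Adam11, which sets most of each r. Over the deviations from the group means, the closest were Sdccag8 (r 0.998), Slc4a8 (0.994) and March5 (0.991), of which March5 had a log2 fold change of −0.01. By that measure r was 0.905 for Adam23, 0.759 for Adamts14 and 0.111 for Adam22, and it was 0.683 for Adam19 and ran from −0.624 for Adam15 to −0.130 for Adam17 in the other paralogs compared. Over the libraries, the paralogs compared other than Adam23 ran from r −0.544 for Adam8 to 0.207 for Adam9. Adam12 and Adam28 were too low to be compared.

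Most markers of dendritic cells, and most of natural killer cells, were lower in KI, as were Adam11, Adam22 and Adam23. The 12 conventional dendritic cell genes summed to 1299, 1647 and 1167 CPM in WT and 457, 587, 998 and 756 CPM in KI, and 6 were called lower and 0 higher, with a median log2 fold change of −1.25. The 10 plasmacytoid dendritic cell genes summed to 580, 663 and 386 CPM in WT and 255, 200, 217 and 183 CPM in KI, and 7 were called lower and 0 higher, with a median of −1.46. Both sums are lower in every KI library than in every WT library, and none of these markers was at 0 in any library. Ccr7, Cd83 and Itgax made up most of the conventional sum in each library. Ccr7 alone read 363, 451 and 404 CPM in WT and 89.9, 205, 358 and 358 CPM in KI. Whether the reads of these genes came from dendritic cells was not tested. Flt3, the receptor of the dendritic cell growth factor, read 86.6 to 138 CPM in WT and 29.7 to 58.2 CPM in KI. Siglech, a defining marker of plasmacytoid cells, read 80.9 to 144 CPM in WT and 16.4 to 31.3 CPM in KI. Other markers went less far. Ffar2 had a log2 fold change of 0.77, and the groups overlapped for it and for Xcr1, Batf3, H2-DMb2, Cd83, Bst2, Tcf4 and Ly6d. Over the deviations from the group means, r with Adam11 was −0.085 for Siglech and 0.593 for Cd209a. Natural killer cell genes were called lower in 6 of 9, with a median log2 fold change of −1.50, and 8 of the 9 were negative. They summed to 540 to 660 CPM in WT and 227 to 786 CPM in KI. Eomes, the 1 positive gene of that list (log2 fold change 1.59), made up 534 CPM of the 786 CPM in KI replicate 2. In bulk RNA, fewer cells of a type and less RNA per cell cannot be told apart. The methods do not tie the kit for naive CD4+ T-cells to these libraries. The part of either cell type in the Adam11, Adam22 and Adam23 values was not tested.

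**Figure D5:**
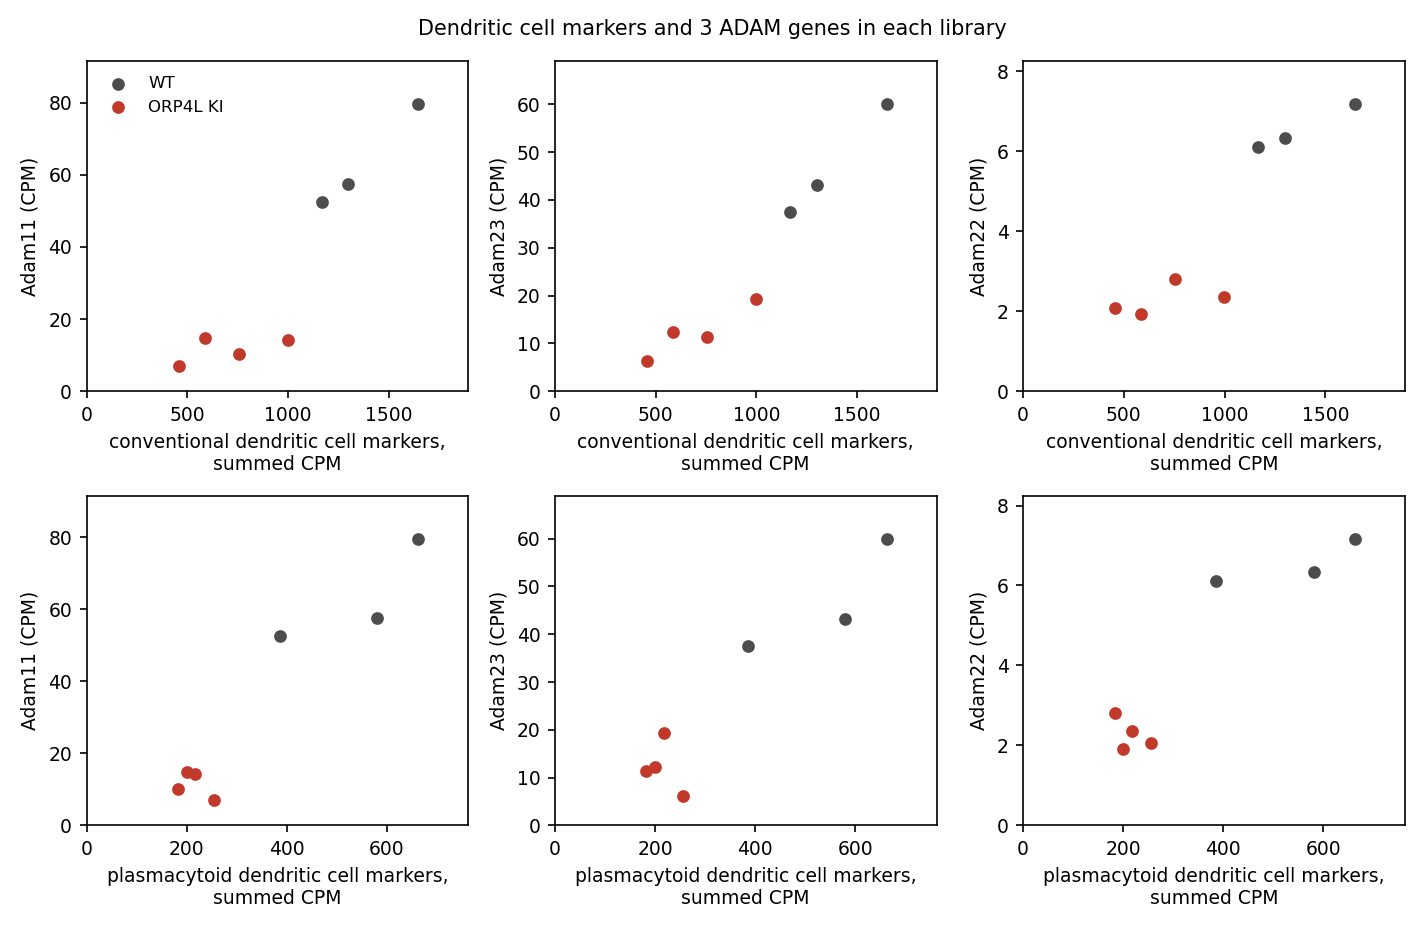
Adam11, Adam23 and Adam22 (CPM, columns) against the summed CPM of 12 conventional (top row) and 10 plasmacytoid (bottom row) dendritic cell markers in each WT (grey) and ORP4L KI (red) library. Ccr7, Cd83 and Itgax make up most of the conventional sum. The WT libraries lie high on both axes and the KI libraries low, and the WT libraries have the same order by Adam11 as by both sums. Within the 4 KI libraries Adam11 is lowest, at 7.0 CPM, in the library with the lowest conventional sum, 457 CPM, and the highest plasmacytoid sum, 255 CPM.

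Of the remaining marker lists, 3 overlapped between the groups. B-cell genes summed to 441 to 732 CPM in WT and 269 to 797 CPM in KI, with 0 of 12 called, and monocyte and macrophage genes to 3045 to 5435 CPM and 2252 to 8093 CPM, with 2 called lower and 1 higher of 12. Of the 9 megakaryocyte genes 0 were called, at 258 to 303 CPM in WT and 135 to 470 CPM in KI. The 9 erythroid genes summed to 5309 to 9390 CPM in WT and 683 to 4650 CPM in KI, a sum that is lower in every KI library, though 0 of the genes were called.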

How the data were processed

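mRNA libraries of T-cells of 3 WT and 4 ORP4L KI mice were sequenced on an Illumina NovaSeq. The authors dropped reads under 17 nt and mapped the rest with FANSe3 to mouse mRNAs. The deposited count is the raw number of reads per gene, over its splice variants together. The deposited RPKM values use each gene's longest transcript and were used here only to compare levels between genes. Mapping settings, strand and the handling of reads with several matches are not given in the sources used here, and the build named in the labels is mm10. The total count per library bounds a gene at 0 to 3 counts, which covers counting error only.

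Samples were grouped by the genotype in the labels, and no pair of libraries agreed within sampling noise. The counts were tested with edgeR 4.0.16 in R 4.3.3 by the quasi-likelihood test, without covariates, after TMM scaling and filterByExpr (10 counts in enough libraries and 15 in all), over 13462 genes with Benjamini-Hochberg adjustment. CPM and fitted fold changes use TMM. The standard error is the log2 fold change divided by the square root of F. The fit was tested on simulated data.

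The members and lists were chosen with earlier results of these data known. The genes named are the 10 members, Osbp2, in each list those past either rule (at most 5) and the 2 with the highest mean CPM, the 5 genes most like Adam11 over the libraries and the 3 most like it over deviations from group means (mean log2 CPM of at least 1, prior count 2), and the 3 nearest genes on each side of Adam11. Adam1a, Adam4, Adam6b, Adam30, Adamtsl2, Adamtsl4, Tspan5, Cxcl16 and the Lgi genes are not covered by it and were picked with their values in view. The same holds for Flt3, Siglech and the other dendritic and natural killer cell markers named. Of the genes this rule covers, 1 is not reported here. The zinc site was searched in the coding sequence of the longest coding transcript per gene that matches the files' RefSeq identifiers (GENCODE M21, GRCm38, Biopython 1.88). It was searched as the amino acid pattern of 11 residues with the 3 histidines, the glutamate and a glycine, and in genes without it by local alignment. Alternatives were other scalings, filters, DESeq2 1.42.0, the replicate number as a block, thinned counts and each library left out, and a sex covariate was added after seeing the data. Whether same-numbered mice pair was checked by the correlation of their deviations, which was 0.150, −0.535 and −0.0018 for numbers 1, 2 and 3, so the numbers were not taken as pairs. Python 3.11.15, pandas 2.3.3 and Matplotlib 3.10.9 served for tables and plots.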

Additional observations from a re-analysis of the deposited data

How the results depend on the processing

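Adam23 was the only paralog past the unadjusted rule under each of the 16 alternatives, with log2 fold changes from −2.24 to −1.72 and adjusted p from 5.40e-05 to 0.298. Adam11 ran from −2.60 to −2.25 and Adam22 from −1.66 to −1.43. The number of paralogs at an adjusted p under 0.05 was 0 in the reported edgeR test and 1, Adam23, with total counts alone, with no filter and with DESeq2's Wald test, and 0 to 1 with a library left out (1 without ORP4L KI replicate 2). Paralogs whose groups do not overlap numbered 1 to 2 with a library left out, the second being Adam12 without WT replicate 2 or without ORP4L KI replicate 3.

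The count of all genes at an adjusted p under 0.05 was unstable. It was 3 as reported, 113 with total counts alone, 44 after upper-quartile scaling, 176 with no filter and 784 with DESeq2's Wald test. It was 0 with 10 counts in every library (1549 genes at an unadjusted p under 0.05) and 0 with the sex covariate (1544). With a library left out it ran from 0 to 342, with 342 without ORP4L KI replicate 2, 1 without ORP4L KI replicate 3 and 0 without WT replicates 1, 2 or 3 (1405, 1260 and 1759 genes at an unadjusted p under 0.05) or ORP4L KI replicate 4 (1421). The causes were not tested. The unadjusted rule called 630 genes and 328 to 805 with a library left out, the lowest without WT replicate 2. Total counts alone moved the median of all genes to −0.13 and the share of lower calls from 49.2% to 59.7%.

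With the replicate number as a block, without ORP4L KI replicate 4, 48 genes passed an adjusted p of 0.05 and 0 paralogs did. The log2 fold change was then −2.02 for Adam23 (adjusted p 0.0751) and −1.63 for Adam22 (adjusted p 0.185). The replicate numbers showed no pairing, as the mean correlation of deviations was −0.129 for equal and 0.042 for unequal numbers. With so few libraries this check cannot exclude pairing.

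Signs turned in genes near 0, none past a rule. With a library left out the log2 fold change ran from −0.194 to 0.0217 for Adam17 (positive without WT replicate 3), from −0.324 to 0.417 for Adam19 (negative without ORP4L KI replicate 2), from −0.128 to 0.0739 for Frmd8, from −0.0138 to 0.166 for Tspan14, from −0.125 to 0.0173 for Pcsk7 and from −0.0561 to 0.309 for Cd44. Frmd8 was at 0.0057 with DESeq2 size factors, 0.0058 with the Wald test and 0.0010 with the block. Total counts alone gave −0.0456 for Tspan14, −0.0142 for Cd44 and −0.0895 for Kcnab2, and upper-quartile scaling −0.0034 for Kcnab2. Over all settings but the sex covariate 416 values kept direction and side of the threshold, 14 were weaker and 16 turned sign, and 29 and 1 were the same or weaker with the sex covariate. The low counts of Adam12, Adam28 and Adam6b limit what can be seen of them.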

Other observations

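Of the 3 nearest genes on each side of Adam11, Gjc1, which encodes a gap junction protein, and Higd1b, which encodes a mitochondrial protein, have values here. Both lie on the side of higher coordinates, and the 3 genes on the other side were not analysed here. Gjc1 had at most 3 counts in a library and Higd1b was at 0 in all 7.

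Xist was above Ddx3y in 1 of 3 WT libraries and in 2 of 4 ORP4L KI libraries. With this split as a covariate the log2 fold change was −2.42 for Adam11, −1.90 for Adam23 and −1.49 for Adam22.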
